A study of Homo sapiens with 6 samples.

Results

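Retinoid synthesis, carriers and receptors are represented here by 9 genes that were chosen by name from the 23228 genes in the count files. They are STRA6, RDH10, DHRS3, ALDH1A1, ALDH1A3, CRABP2, RARA, RARB and RARG, and all 9 symbols were found in every library. RNA was sequenced from RL95-2, an established human endometrial carcinoma cell line, in 3 control and 3 ADP-CM libraries. Control cells were kept for 24 h in serum-free RPMI mixed 1:1 with DMEM. ADP-CM cells were kept for 24 h in serum-free RPMI mixed 1:1 with adipocyte-conditioned medium. That medium is DMEM in which mature adipocytes from human visceral fat had been cultured. According to the paper, the fat came from female patients with a body mass index in the obese range. No library had medium from lean donors. The RPMI was serum-free in both groups, and they differed in whether the DMEM had been conditioned. The methods of the study do not say whether the DMEM given to the adipocytes held serum. The model is 1 cell line, and nothing in the labels says whether the 3 libraries of a group came from separate cultures, so the p-values measure only the spread between these libraries. The retinoid content of the media was not analysed here.

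Vitamin A reaches cells as retinol bound to a serum carrier. Retinol is oxidised reversibly to retinal, and retinal is oxidised irreversibly to all-trans retinoic acid, which binding proteins carry to nuclear receptors (RAR) that act on DNA together with RXR partners. The pathway is known for feedback, since retinoic acid induces enzymes that remove it or its precursors. In the endometrium, retinoids are known for a role in epithelial differentiation and in the preparation of the stroma for implantation.

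Control libraries held 16262614 to 17096135 reads on genes and ADP-CM libraries 18103609 to 18363033, so reads were compared only after scaling to CPM, the usual read count normalised to library size, with edgeR's TMM factors. A gene was tested when it passed edgeR's filter on low counts (12663 of 23228 genes), and it was called when its adjusted p-value in the quasi-likelihood test of edgeR was under 0.01. The spread between libraries was small, with a common biological coefficient of variation of 1.67%, and many small changes were called. Among the 12 epithelial markers, EPCAM, KRT8, KRT18 and KRT7 had at least 3278 reads in every library, while CLDN3 had 4 to 17 reads, MUC1 12 to 68 and ESR1 20 to 51. KRT19 fell by 44.4%, and MUC1, with its few reads, rose by 141.2%. Of the 12 markers, 11 were tested. PAX8 and MUC1 were called higher, and CDH1, KRT8, KRT18, KRT19, CLDN4 and ELF3 lower. These 2 and 6 calls stand beside 13.5% and 13.0% of all tested genes, a difference that was not tested. The summed level of the 12 markers was 6025 to 6192 CPM in control and 5216 to 5323 CPM in ADP-CM. The adipocyte markers ADIPOQ, LEP and CIDEA had 0 reads in all 6 libraries. The 12 adipocyte markers summed to 35.3 to 38.5 CPM in control and 33.7 to 34.1 CPM in ADP-CM, most of it PNPLA2. PNPLA2 was not called, LIPE was called lower with a fall of 34.9%, and the other 10 were not tested. The 9 stromal fibroblast markers summed to 61.5 to 68.5 CPM in control and 78.3 to 79.3 CPM in ADP-CM, nearly all of it COL1A1. PDGFRA and THY1 had at most 1 read in any library. Of these 9 markers 2 were tested, and COL1A1 was called higher with a rise of 23.1%, while COL3A1 was not called. The 9 leukocyte markers summed to 8.42 to 9.37 CPM in control and 10.8 to 13.1 CPM in ADP-CM, most of it CD68, with PTPRC at no more than 1 read. The 6 endothelial markers summed to 60.9 to 67.1 CPM in control and 54.6 to 62.2 CPM in ADP-CM, nearly all of it CDH5, the only one tested, which was not called. KDR had 0 reads in all libraries, and PECAM1 and CLDN5 had at most 1 read in any library. The part of these markers in the results below was not tested.

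With ADP-CM, 2 enzymes and the carrier of the pathway were called, and none of the 3 receptors was. ALDH1A3, which makes retinoic acid from retinal, rose by 46.2%, and DHRS3, which reduces retinal back to retinol, rose by 33.5%. CRABP2, which carries retinoic acid to the receptors, fell by 29.2%. The call was thus higher for 2 of the 9 members and lower for 1. Of all tested genes, 13.5% were called higher and 13.0% lower, beside 3 calls among the 8 members tested. The members were chosen with earlier results of these data known, and this difference was not tested. Because RNA was pooled over all cells of a culture, fewer cells that express a gene and less RNA per cell cannot be told apart. None of the 9 passed a fold change of 1.5, which 1.14% of tested genes passed in each direction, 144 higher and 144 lower. The control and ADP-CM libraries did not overlap for 4 of the 9 members (ALDH1A3, DHRS3, CRABP2 and STRA6), beside 45.5% of all tested genes. Of the 9 members 8 passed the filter, and ALDH1A1 did not. Across all tested genes the median log2 fold change was -0.0023, with the 5th percentile at -0.36 and the 95th at 0.38. ALDH1A3 and DHRS3 lay above that range and CRABP2 below it.

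**Figure D1:**
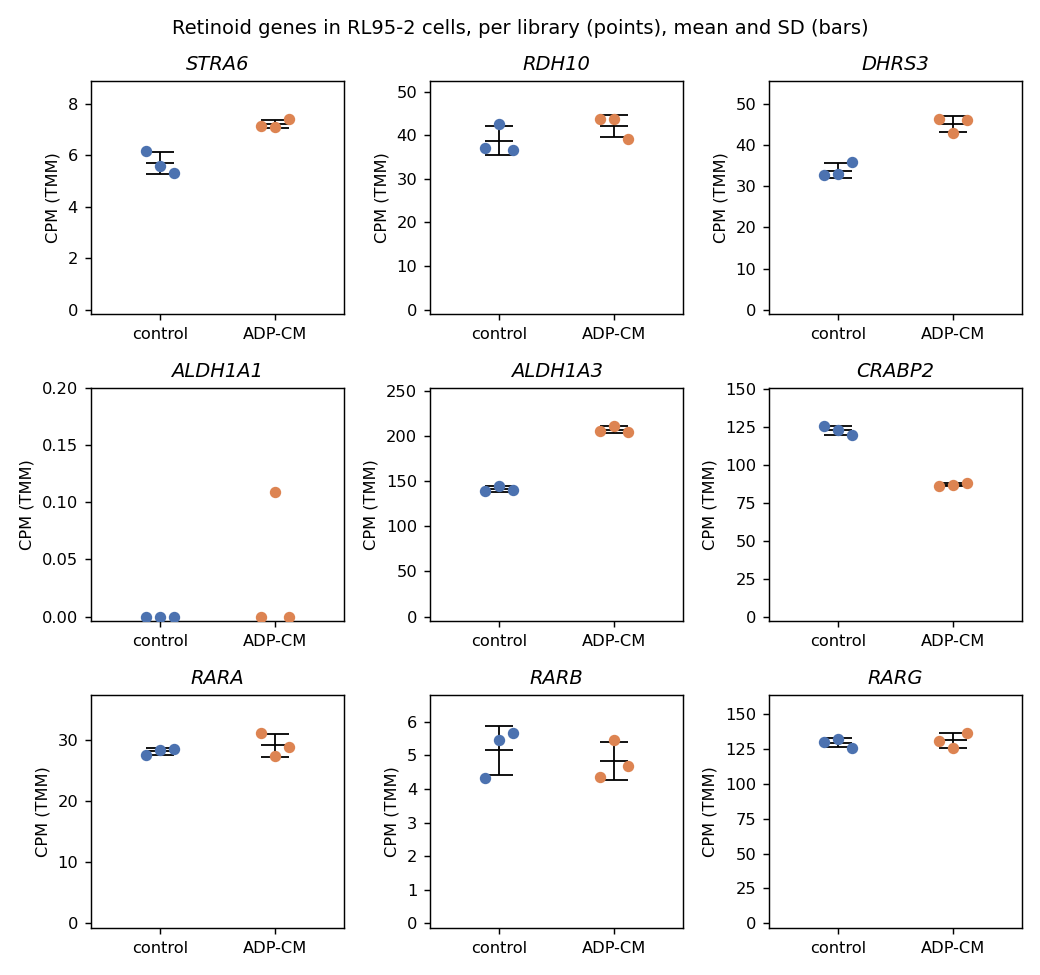
Level of each of the 9 genes in TMM-normalized CPM (vertical axes, linear, scaled per gene and drawn from 0) in the 3 control (blue) and 3 ADP-CM (orange) libraries. Points are libraries and bars are the mean and SD, left out for ALDH1A1. ALDH1A3, DHRS3 and STRA6 were higher in every ADP-CM library than in any control library, CRABP2 was lower, and the libraries of the 3 receptors and RDH10 overlapped.

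Uptake of retinol is served by STRA6, a cell-surface receptor for the serum retinol carrier RBP4 and itself a known target of retinoic acid. STRA6 lies on chromosome 15 from 74471807 to 74504608 (GRCh37, minus strand). With replicates in the order 1, 2 and 3, here and for every gene, 100, 94 and 91 reads were counted in control, against 129, 130 and 136 in ADP-CM. The ADP-CM libraries were all above the control libraries. On the CPM scale its mean was 5.68 ± 0.433 in control against 7.20 ± 0.167 in ADP-CM (n = 3, SD). The log2 fold change was 0.34, with a 95% interval of 0.10 to 0.58. The adjusted p-value of edgeR was 0.0189, so the gene was not called, although it passed a limit of 0.05. DESeq2 gave an adjusted p-value of 0.124. STRA6 was the second least abundant of the tested members, which limits what these reads can resolve.

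RDH10 oxidises retinol to retinal, the reversible and usually limiting step of the pathway. Its reads numbered 600, 718 and 626 in control, against 791, 800 and 720 in ADP-CM. In CPM the groups overlapped, since control replicate 2, at 42.5, lay above ADP-CM replicate 3, at 39.2. Mean levels were 38.7 ± 3.31 in control against 42.1 ± 2.61 in ADP-CM (n = 3, SD). This is a difference of 0.12 on the log2 scale, with a 95% interval of 0.02 to 0.23 and an adjusted p-value of 0.064 by edgeR. Which library was left out decided the call. Without control replicate 2 the log2 fold change was 0.20 with an adjusted p-value of 0.00764, and without ADP-CM replicate 3 it was 0.17 with an adjusted p-value of 0.00787.

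DHRS3 (chromosome 1, 12627939 to 12678216, GRCh37, minus strand) works against RDH10, with which its protein is known to associate, and is known to be induced by retinoic acid. Its reads were 530, 556 and 612 in control and 838, 788 and 849 in ADP-CM. In CPM these were 32.7, 32.9 and 35.8 against 46.3, 43.0 and 46.2. All 3 ADP-CM libraries stood above all 3 control libraries by a gap wider than the spread within either group. For DHRS3 the log2 fold change was 0.42 (SE 0.051), with a 95% interval of 0.31 to 0.52, and the adjusted p-value was 6.9e-10 by edgeR. The intervals of DHRS3 and RDH10 did not overlap, but the difference between their changes was not tested.

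Retinal is turned into retinoic acid by the ALDH1A dehydrogenases. ALDH1A3 (chromosome 15, 101417919 to 101456831, GRCh37, plus strand) accounted for nearly all of their reads. It had 2251, 2446 and 2404 reads in control and 3713, 3869 and 3755 in ADP-CM. In CPM it stood at 138.7, 144.9 and 140.6 against 205.1, 211.0 and 204.2, so that the lowest ADP-CM library lay well above the highest control library. For ALDH1A3 the log2 fold change was 0.55 (SE 0.028), with a 95% interval of 0.49 to 0.60, and the adjusted p-value was 9.25e-26 by edgeR. This was the largest rise among the tested members, at 1.46-fold just short of the limit of 1.5. In the annotation 32.1% of the exonic bases of ALDH1A3 lie opposite the antisense gene ALDH1A3-AS1. The strand setting of the counting is not given in the sources used here, so reads of the antisense gene cannot be told apart.

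The other dehydrogenases were at the limit of detection. ALDH1A1 (chromosome 9, 75515587 to 75695358, GRCh37) had 2 reads in ADP-CM replicate 2 and 0 reads in the other 5 libraries. A count of 0 allows a level of up to 3 reads, which is 0.163 to 0.185 CPM in these libraries and covers counting error only. The observed level of every library lay under that limit, with ADP-CM replicate 2 the highest at 0.109 CPM. As that library did have reads, the limit for a count of 0 does not bound its level. ALDH1A1 did not pass edgeR's filter on low counts, so the main fit gave it no fold change. ALDH1A2 had at most 2 reads in any library. Per kilobase of exon, ALDH1A3 made up all of the summed ALDH1A1 and ALDH1A3 signal in 5 libraries and 99.9% in ADP-CM replicate 2.

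CRABP2 (chromosome 1, 156669398 to 156675608, GRCh37, minus strand) binds retinoic acid in the cytosol and hands it to RAR in the nucleus. It had 2036, 2073 and 2046 reads in control and 1553, 1592 and 1612 in ADP-CM. The raw reads were lower in ADP-CM although those libraries were deeper. In CPM CRABP2 stood at 125.5, 122.8 and 119.6 against 85.8, 86.8 and 87.6, and the groups were far apart. For CRABP2 the log2 fold change was -0.50 (SE 0.033), with a 95% interval of -0.56 to -0.43, and the adjusted p-value was 2.97e-20 by edgeR. CRABP2 is itself a known target of retinoic acid, and here it moved opposite to DHRS3. The related carrier CRABP1 had 0 reads in all libraries. FABP5, which is known to carry retinoic acid to PPARD, is also listed at 0, but FABP5 has near-identical pseudogenes and reads without a unique alignment were left out of the counts, so this 0 says nothing about its level.

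**Figure D2:**
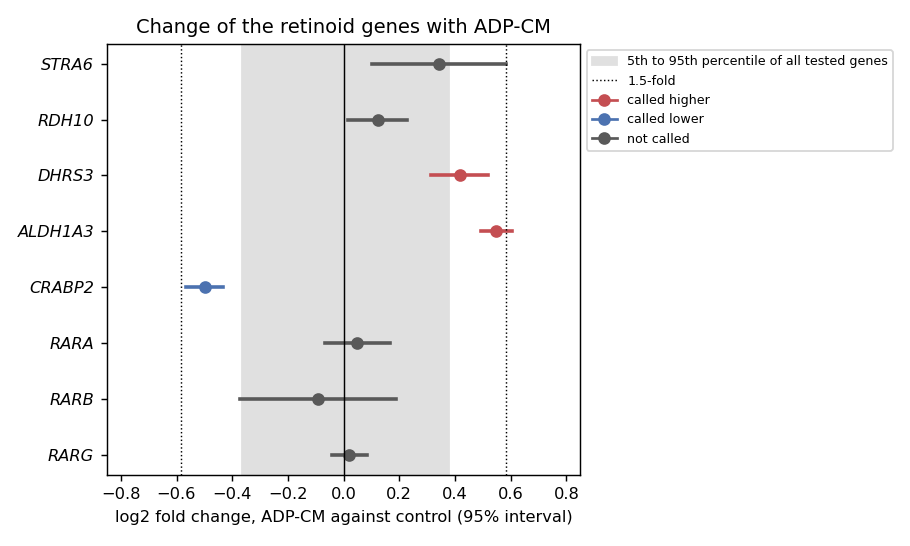
Log2 fold change of the 8 tested genes with ADP-CM (horizontal axis; points) and its 95% interval (lines), coloured by call, with the 5th to 95th percentile of all tested genes as a grey band and dotted lines at a 1.5-fold change. ALDH1A3 at 0.55 and DHRS3 at 0.42 lay to the right of the band, CRABP2 at -0.50 to its left, and the 3 receptors inside it.

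The receptors RARA, RARB and RARG are ligand-activated transcription factors that differ mainly in where they are expressed. RARG (chromosome 12, 53604351 to 53626764, GRCh37, minus strand) was the main one in RL95-2 cells. It had 2112, 2231 and 2153 reads in control and 2374, 2307 and 2514 in ADP-CM. In CPM its means were 129.4 ± 3.18 and 131.2 ± 5.44 (n = 3, SD), and the groups overlapped. The log2 fold change was 0.02 with a 95% interval of -0.04 to 0.08 (adjusted p = 0.654 by edgeR).

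RARA (chromosome 17, 38465432 to 38513895, GRCh37, plus strand) had 447, 479 and 489 reads in control and 565, 503 and 531 in ADP-CM. Its CPM means were 28.2 ± 0.549 and 29.2 ± 1.91 (n = 3, SD), and ADP-CM replicate 2 lay below every control library. RARA had a log2 fold change of 0.05 with a 95% interval of -0.07 to 0.17 (adjusted p = 0.541 by edgeR). Other genes lie opposite 21.4% of the exonic bases of RARA.

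RARB (chromosome 3, 24729378 to 25639423, GRCh37, plus strand), the receptor gene best known as a direct target of retinoic acid, had 70, 92 and 97 reads in control and 79, 100 and 86 in ADP-CM. Its CPM means were 5.15 ± 0.728 and 4.83 ± 0.561 (n = 3, SD), and the groups overlapped. RARB had a log2 fold change of -0.09 with a 95% interval of -0.37 to 0.19 (adjusted p = 0.639 by edgeR). The interval is wider than those of RARA and RARG. With a library left out, the log2 fold change of RARB ranged from -0.20 (without control replicate 1) to -0.02 (without control replicate 3), and it was not called in any of these fits.

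The makeup of the receptor pool was compared within each library, which removes differences in depth. Per kilobase of exon, RARG made up 79.6% ± 0.746 of the summed signal of the 3 receptors in control, against 79.3% ± 0.896 in ADP-CM (n = 3, SD). RARA made up 18.7% ± 0.529 and 19.1% ± 0.979, and RARB 1.72% ± 0.248 and 1.59% ± 0.243. The differences between groups were -0.213, 0.339 and -0.126 percentage points, with p = 0.7, 0.7 and 0.6 in two-sided exact permutation tests, none of which could go below 0.1 with 3 against 3 libraries. This design therefore could not reach 0.05.

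The promoter of RARB is shown because it holds the textbook binding site of RAR, and those of ALDH1A3, DHRS3 and CRABP2 because these genes were called. Each line gives the 150 bases before the first start site that RefSeq lists for the gene on GRCh38.p14, read 5′ to 3′ on the strand of the gene. These coordinates are of another build than the gene positions above. Capitals mark the direct repeat in RARB and a CCAAT box in ALDH1A3. They lie at chr3:25428113-25428262 (plus strand), chr15:100879681-100879830 (plus strand), chr1:12618211-12618360 (minus strand) and chr1:156705785-156705934 (minus strand).
RARB: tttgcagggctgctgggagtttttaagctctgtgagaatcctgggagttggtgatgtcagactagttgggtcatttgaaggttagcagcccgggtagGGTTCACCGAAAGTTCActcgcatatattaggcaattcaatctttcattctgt
ALDH1A3: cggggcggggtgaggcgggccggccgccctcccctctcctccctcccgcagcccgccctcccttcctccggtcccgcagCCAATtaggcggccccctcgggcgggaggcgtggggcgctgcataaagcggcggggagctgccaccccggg
DHRS3: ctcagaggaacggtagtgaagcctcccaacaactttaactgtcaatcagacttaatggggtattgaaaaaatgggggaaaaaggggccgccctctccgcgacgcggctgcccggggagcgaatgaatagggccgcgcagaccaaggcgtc
CRABP2: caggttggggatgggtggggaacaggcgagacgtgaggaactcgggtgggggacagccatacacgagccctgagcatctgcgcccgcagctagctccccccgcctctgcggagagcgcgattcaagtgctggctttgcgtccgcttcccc

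The repeat in RARB is a DR5 retinoic acid response element, a direct repeat of the receptor's hexamer with 5 bases between the copies, from 53 to 37 bases before the start site (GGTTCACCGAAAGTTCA). The search covered both strands of windows from 250 bases before to 50 bases after each RefSeq start, which gave 19 windows for 8 of the 9 members. Several starts of a gene counted as separate windows, with 5 for STRA6 and 4 for RARB. A DR5 element was in 1 of the 19 windows and in 0.342% of all 35116 promoter windows. That 1 window was of RARB, whose element was known before the search, so these 2 numbers are no comparison. No motif share was tested. A DR2 element was in 0 of the 19 (0.236% of all), and a DR1 element in 1, at a further start of DHRS3 (0.382% of all). The hexamer AGGTCA on its own was in 5 of the 19 windows, those of DHRS3, RARB, STRA6 and RARA, and in 13.8% of all. The STAT-type motif TTCNNNGAA, which reads the same on both strands, was in 4 of the 19 windows, 2 of RARB and 2 of STRA6, and in 7.66% of all. In RARB, 1 of these lies inside the DR5 element. CCAAT was in 5 of the 19 windows (34.6% of all) and TATAAA in 1 (11.5% of all). These matches describe letters in the windows and say nothing of binding in these cells. The printed stretches of DHRS3 and CRABP2 held none of the motifs, while further starts of DHRS3 held the DR1 element and an AGGTCA hexamer. Each printed stretch covers only 150 bases before 1 start. Whether any motif goes with a call was not tested.

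Levels were compared between the genes as CPM per kilobase of exon. In control, CRABP2 was highest at 113.3 ± 2.71, followed by ALDH1A3 at 26.5 ± 0.587, RARG at 25.2 ± 0.620, DHRS3 at 9.61 ± 0.493, RDH10 at 7.26 ± 0.621, RARA at 5.94 ± 0.116, STRA6 at 0.741 ± 0.0565 and RARB at 0.545 ± 0.0771 (n = 3, SD). ALDH1A3 and RARG were close neighbours, and with the length of the longest transcript in place of all exons their order turned round, at 40.8 and 44.4. In ADP-CM the order was the same, with CRABP2 at 80.2 ± 0.861 and ALDH1A3 at 38.8 ± 0.694, and ALDH1A3 then lay above RARG under both lengths. Under either length every neighbouring pair, ALDH1A3 and RARG included, was apart in all libraries of a group.

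**Figure D3:**
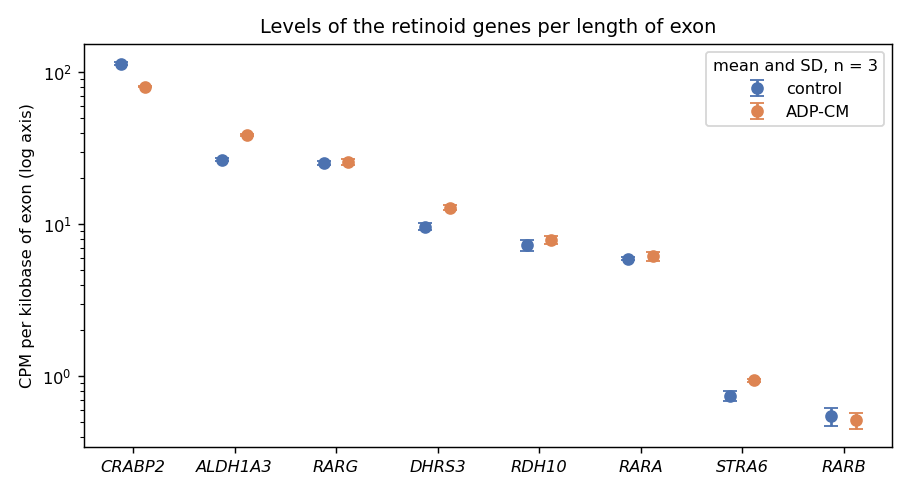
Level of the 8 tested genes in TMM-normalized CPM per kilobase of exon (vertical axis, logarithmic) in control (blue) and ADP-CM (orange), as mean and SD of 3 libraries. CRABP2 was highest in both groups (113.3 and 80.2), and STRA6 and RARB were the lowest.

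The wider pathway was taken from 7 lists with 77 further genes in the count files, of which 44 were tested. Of the 44 tested genes, 9 were called higher and 4 lower, beside 13.5% and 13.0% of all tested genes. Their median log2 fold change was 0.02.

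Clearance of retinoic acid is the task of the CYP26 enzymes. CYP26B1 rose from 19.8 ± 1.29 to 28.9 ± 2.44 CPM (n = 3, SD), with 297, 346 and 352 reads in control and 490, 514 and 583 in ADP-CM. All ADP-CM libraries lay above all control libraries. The log2 fold change of 0.55 (SE 0.065, adjusted p = 2.68e-10 by edgeR) was of the same size as that of ALDH1A3. CYP26A1, the family member best known as induced by retinoic acid, had 17, 17 and 19 reads in control and 20, 32 and 12 in ADP-CM, and the groups overlapped (log2 fold change 0.14, 95% interval -0.45 to 0.74). CYP26C1 had 0 reads in all libraries.

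Of the 14 genes of retinol uptake and storage, 4 were tested. Of these, 0 were called higher and 2 lower, beside 13.5% and 13.0% of all tested genes. At an unadjusted p under 0.05 by edgeR the same 2 passed. SCARB1, a lipoprotein receptor that also takes up carotenoids, fell from 232.0 ± 5.19 to 203.2 ± 4.05 CPM (n = 3, SD), and PNPLA4, a lipase that can act on retinyl esters, had a log2 fold change of -0.26 that did not pass with DESeq2 (adjusted p = 0.066). LRAT, which stores retinol as esters, had 50 to 63 reads in control and 57 to 65 in ADP-CM and was not called (adjusted p = 0.877 by edgeR). RBP2, RBP4, RBP5 and RBP7, which bind retinol, had 0 reads in all libraries.

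Of the 20 other retinol and retinal oxidoreductases, 10 were tested. Only DHRS7 was called, higher, beside 13.5% of all tested genes called higher and 13.0% lower. DHRS7 had a log2 fold change of 0.15 (adjusted p = 0.00591 by edgeR, 0.0577 by DESeq2). RDH11, the gene of this list with the most reads in control, had 1414 to 1495 reads in control and 1483 to 1533 in ADP-CM and was not called (log2 fold change -0.08, adjusted p = 0.0599 by edgeR). It was named after its values were seen, as were PPARD, RBP2, RBP4, RBP5 and RBP7.

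Of the 3 RXR genes, the partners of RAR, and the 3 PPAR genes, which also pair with RXR, 4 of 6 were tested and none was called in either direction by edgeR or DESeq2, while PPARD passed an unadjusted p of 0.05 by edgeR. RXRA was at 114.8 ± 4.59 CPM with control medium and 116.0 ± 2.99 CPM with ADP-CM, and RXRB at 35.6 ± 1.0 and 34.9 ± 0.623 CPM (n = 3, SD). The 95% intervals of their log2 fold changes were -0.05 to 0.08 and -0.13 to 0.08. RXRG had 0 reads in all libraries.

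All 12 coregulators of the receptors were tested, and 4 were called higher and 1 lower, beside 13.5% and 13.0% of all tested genes. That difference was not tested. PRAME, a tumour antigen known to repress RAR signaling, rose from 72.1 ± 2.24 to 102.9 ± 2.81 CPM (n = 3, SD). The difference was 0.51 on the log2 scale (SE 0.036, adjusted p = 2.9e-19 by edgeR). NRIP1, a ligand-dependent corepressor that retinoic acid induces, rose from 143.6 ± 2.41 to 167.8 ± 5.33 CPM. TBL1XR1, a corepressor subunit, and NCOA3, a coactivator, had log2 fold changes of 0.13 and 0.10, which did not pass with DESeq2 (adjusted p = 0.0136 and 0.0243). NCOA1, a coactivator, was the gene called lower, with a log2 fold change of -0.18 that likewise did not pass with DESeq2 (adjusted p = 0.0602), and is named here after its value was seen.

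Genes known to respond to retinoic acid moved in both directions. Of 23 such genes 16 were tested, and 5 were called higher and 1 lower, beside 13.5% and 13.0% of all tested genes. That difference was not tested. The median log2 fold change of the 16 was 0.15. TGM2, which encodes tissue transglutaminase, had 337, 359 and 353 reads in control and 958, 998 and 1046 in ADP-CM. It rose from 20.9 ± 0.326 to 54.7 ± 2.0 CPM (n = 3, SD). With a log2 fold change of 1.39 (SE 0.054, adjusted p = 4.76e-32 by edgeR), it was the only gene of the 7 lists past a fold change of 1.5. TNFAIP2 rose by 0.14 on the log2 scale, and CYP26B1 and NRIP1, described above, are on this list too. ICAM1, named after its value was seen, rose by 0.18 and did not pass with DESeq2 (adjusted p = 0.0189). ELF3, an epithelial transcription factor that is also among the epithelial markers, fell from 367.0 ± 5.59 to 253.7 ± 5.46 CPM (n = 3, SD), or by 0.53 on the log2 scale. Of the members that are themselves known targets, DHRS3 was called higher and CRABP2 lower. STRA6 (0.34) and RARB (-0.09) were not called, and the changes of these 4 genes were not tested against each other.

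**Figure D4:**
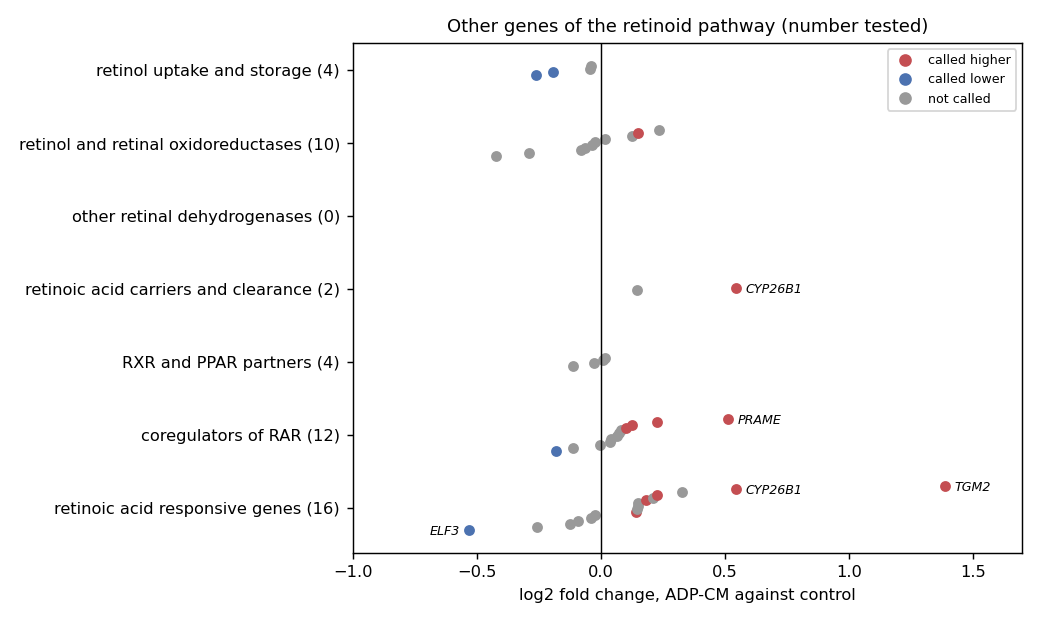
Log2 fold change with ADP-CM (horizontal axis) of the tested genes in 7 lists of the wider retinoid pathway (rows, with the number tested), where each point is a gene, coloured by call, and genes called beyond 0.4 in size are named. TGM2 at 1.39 stood apart, CYP26B1 and PRAME lay near 0.5, and ELF3 at -0.53 was the lowest called gene. CYP26B1 is on both of the lists where it appears.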

How the data were processed

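The authors sequenced stranded poly(A) libraries as 50 bp single reads, aligned them to hg19 with TopHat2 and used HTSeq for counting on RefSeq genes. Unnormalized whole-number counts were deposited by the authors, 1 file a library. Tool versions and the strand setting are not given in the sources used here. Reads without a unique alignment (20.5% to 20.8% of the total in a file), on no gene (10.2% to 11.6%) or ambiguous stayed out of library sizes and tests. All pairs of replicates differed by more than counting noise (chi-square test of counts) and were kept.

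In R 4.3.3, counts were scaled by TMM, filtered by filterByExpr and compared by the quasi-likelihood test of edgeR 4.0.16 over 12663 genes, adjusted by Benjamini-Hochberg, and the fit was tested on simulated data. The standard error was the log2 fold change divided by the square root of the F statistic. DESeq2 1.42.0 was an alternative. The study's limits were an adjusted p of 0.01 and a fold of 1.5. Lengths and positions came from GENCODE 44 on GRCh37, the build of hg19, for 128 of 132 symbols. Promoters came from RefSeq (GRCh38.p14). The members and lists were chosen with earlier results of these data known. Named were all 9 members, 11 fixed pathway genes (1 of them not reported here), pathway genes past both limits, and up to 4 more called genes per list with the smallest p-values.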

Additional observations from a re-analysis of the deposited data

How the results depend on the processing

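ALDH1A3, DHRS3 and CRABP2 kept their direction and their call under all 12 alternatives in which the log2 fold change was fitted again, with ranges of 0.53 to 0.56, 0.39 to 0.46 and -0.52 to -0.48. Of the 23 genes followed in this way, 13 kept both. With the replicate number as a block, 2 members were higher and 1 lower, as in the unblocked fit, and it changed no count of members or pathway genes (1786 and 1716 of all tested genes, 1707 and 1650 without it). Same-numbered libraries deviated together only weakly, with correlations of 0.07, 0.01 and 0.10, and ADP-CM replicate 2 correlated best with control replicate 1.

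DESeq2 called 1030 genes higher and 953 lower in all, with 5 and 2 pathway genes. At an adjusted p of 0.05 there were 7 pathway genes lower in place of 4. With a fold change of 1.5 also required, 0 members were left in either direction, 1 pathway gene was higher and 0 lower, and 144 genes of all were called each way. Values near 0 changed sign with a library left out, with ranges of -0.0018 to 0.0906 for RARA (below 0 without ADP-CM replicate 1), -0.0105 to 0.0485 for RARG (without ADP-CM replicate 3), -0.0145 to 0.0429 for RXRA (without control replicate 2), -0.154 to 0.0408 for LRAT (above 0 without control replicate 1 or ADP-CM replicate 1) and -0.27 to 0.43 for CYP26A1 (below 0 without ADP-CM replicate 2). The difference in receptor share ranged from -0.214 to 0.717 percentage points for RARA (below 0 without ADP-CM replicate 1) and from -0.642 to 0.253 for RARG (above 0 without control replicate 1 or ADP-CM replicate 1). The cause was not tested. Counts of a few reads (ALDH1A1, ALDH1A2) and of about 100 (STRA6, RARB) limit what can be resolved.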
